A study of Mus musculus with 12 samples.

Results

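The 10 genes described here encode matricellular proteins and were taken by name, as 5 pairs: the SMOC genes (Smoc1, Smoc2), the SPARC genes (Sparc, Sparcl1), the spondins (Spon1, Spon2), the thrombospondins (Thbs1, Thbs2), and periostin and tenascin-C (Postn, Tnc). All 10 were among the 49315 genes counted, and all 10 passed the filter on low counts that kept 17416 genes for testing. They were not chosen by a measured value, but the choice was made with earlier results of these data known. Smoc1 and Smoc2 are also among the genes that the study named from these same libraries as changed in knockout senescent cells only. The direction of Smoc1 and Smoc2 here is therefore not independent evidence.

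Matricellular proteins are secreted into the extracellular matrix but do little to hold it together. They bind receptors, growth factors and structural matrix proteins, and so change how cells adhere, how growth factors reach their receptors and how collagen fibres assemble. Fibroblasts are a main source of them, and many are known for their high expression in growing or repairing connective tissue.

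The libraries came from MAFs (mouse adult fibroblasts), which grow out of ears of adult mice after collagenase digestion and are primary cells. WT control and WT senescent cells came from C57BL6/J mice, and KO control and KO senescent cells from Bmal1 -/- mice, bred without the circadian transcription factor BMAL1 (its gene is listed as Arntl). The 2 control groups had a sham irradiation, and the 2 senescent groups received 20 Gy of X-rays and stayed in culture until senescent. All 4 groups were grown at 3% oxygen in 10% serum, were exposed to 100 nM dexamethasone, a glucocorticoid that aligns cellular clocks, and were collected 12 h after it, with 3 libraries per group. Whether replicates were separate cultures or animals is not given in the sources used here, so the p-values measure the spread between these libraries, which may be technical.

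Total counts were 23923030 to 31736083 per library, and the 10 genes took 1.15% to 1.70% of each library. Levels are given in CPM, counts per 1000000 counts of a library after TMM scaling (trimmed mean of M-values), and 3 counts equalled 0.101 to 0.135 CPM. Arntl was counted in all KO libraries, at 11.8 to 27.5 CPM against 29.8 to 37.4 CPM in WT libraries, so the KO libraries lay below all WT libraries. The proliferation marker Mki67 fell with senescence in both genotypes (log2 fold change −3.70 in WT and −4.46 in KO) and the cell cycle inhibitor Cdkn1a rose (1.92 and 1.63). Each genotype was deposited in a table of its own, so how a table was handled and which genotype it holds cannot be told apart. WT control replicate 3 stood apart from the rest of its group: on the second principal component of all tested genes it lay at 4.14 against −23.4 and −26.8, and on the fourth at 45.0 against −16.0 to 9.54 in the other 11 libraries. KO control replicate 1 stood apart too, at 30.0 on the second component against 12.6 and 14.2, and at −7.06 on the third against −27.2 and −25.1. A chi-square of counts per gene was largest for KO senescent replicates 1 and 3 (19.5) and KO control replicates 1 and 2 (18.2). In WT the highest was 11.7, for control replicates 2 and 3. In bulk RNA, fewer cells that express a gene and less of its RNA per cell cannot be told apart either.

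The fibroblast label was checked against marker lists. The summed level of 8 fibroblast markers was 6861 to 22829 CPM, and those of keratinocyte, macrophage, endothelial, melanocyte, Schwann cell and adipocyte markers were at most 16.0 CPM in any library. Skeletal muscle markers summed to 12.6 to 58.6 CPM, with the muscle regulators Myod1 and Myog at 0 in all control libraries, and contractile and pericyte markers to 1472 to 2359 CPM. A list of 10 chondrocyte markers, which ear cartilage could supply, stood high and moved with the groups: its sum was 7591 to 9424 CPM in WT control, 2079 to 2406 CPM in WT senescent, 5034 to 6933 CPM in KO control and 667 to 771 CPM in KO senescent libraries, with Matn1 at 0 in all WT control libraries. All 9 of its tested genes fell with senescence in both genotypes and all 9 were lower in senescent cells of KO than of WT. The part of these markers in the differences below was not tested, and their ranges are plotted beside those of the fibroblast and contractile lists.

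**Figure D1:**
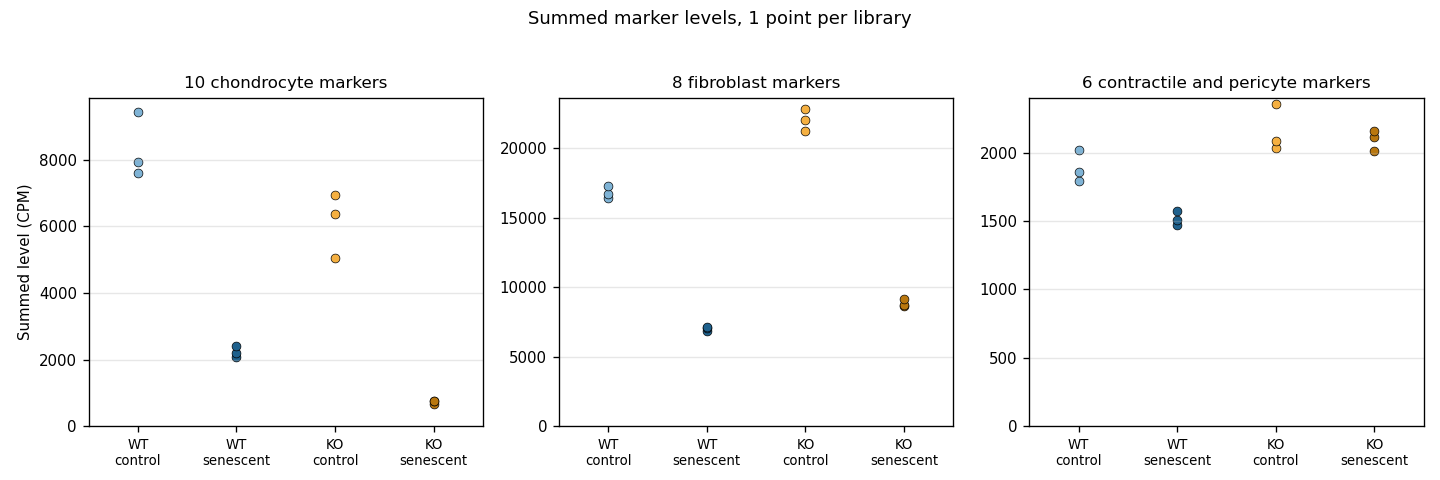
Summed level (CPM, linear axis from 0) of the chondrocyte, fibroblast and contractile and pericyte marker lists, 1 point per library in each of the 4 groups. The chondrocyte sum fell from 7591 to 9424 CPM in WT control to 667 to 771 CPM in KO senescent libraries.

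Across the 10 genes, senescence changed levels in both directions and the genotypes differed in most of them. A gene is said to have risen, fallen or differed where its Benjamini-Hochberg adjusted p over all 17416 genes was under 0.05 in edgeR's quasi-likelihood F-test, to which every adjusted p below belongs, and is termed a DEG where its log2 fold change was also over 1 in size. With senescence in WT cells 2 of the 10 rose, 6 fell and 2 did not pass, where 29.2% of all genes rose and 27% fell (56.2% in all). Of the 10, 2 were DEGs, 1 higher and 1 lower, against 17.4% of all genes (11.6% higher and 5.9% lower). In KO cells 2 rose, 5 fell and 3 did not pass, where 28.5% of all genes rose and 28.6% fell (57.1% in all). There 4 were DEGs, 1 higher and 3 lower, against 18.8% of all genes (11.2% higher and 7.58% lower). The median log2 fold change of the 10 was −0.46 in WT and −0.59 in KO cells, where that of all genes was 0.02 and −0.00. The libraries of control and senescent cells did not overlap for 7 of the 10 genes in either genotype, against 63.2% of all genes in WT and 61.6% in KO cells, so this count was near the background.

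The senescence response itself differed between genotypes, by the interaction term (the KO log2 fold change less the WT one), for 7 of the 10 genes, 3 higher and 4 lower, where 20.9% of all genes passed (9.24% higher and 11.7% lower). Of these, 2 were DEGs of the interaction (Smoc2 and Postn, both lower), against 3.66% of all genes (1.15% higher and 2.51% lower). Between control cells of the 2 genotypes 5 genes were higher in KO, 1 was lower and 4 did not pass, where 8.07% of all genes were higher and 4.96% lower (13% in all). The DEGs were Spon2, Thbs2 and Postn, 3 genes and all higher, against 2.54% of all genes (1.36% higher and 1.18% lower). Between senescent cells 6 were higher in KO, 2 were lower and 2 did not pass, where 11.9% of all genes were higher and 11.8% lower (23.7% in all). The 3 DEGs were Spon2 and Thbs2, both higher, and Smoc2, lower, against 3.48% of all genes (1.29% higher and 2.19% lower). KO and WT libraries did not overlap for 7 genes in control and 8 in senescent cells, where 25.9% and 42% of all genes did not. Without WT control replicate 3, KO against WT control gave 753 DEGs of all genes in place of 442. Without it the 10 genes gave 3 DEGs in WT senescence, Sparcl1 joining the 2 found with all libraries, and as many DEGs as with it in the other 4 comparisons.

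**Figure D2:**
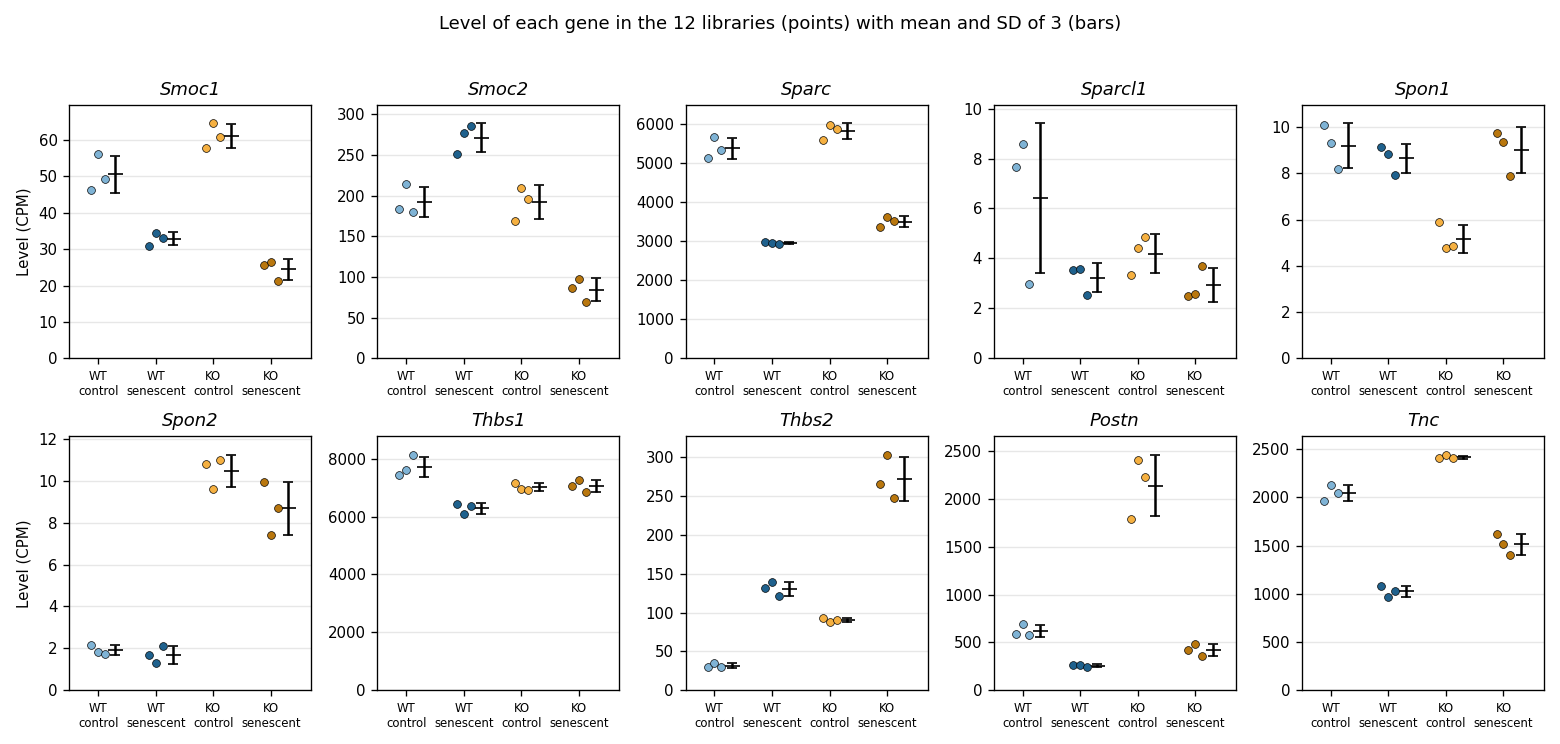
Level (CPM, linear axis from 0 in each panel) of each gene in the 12 libraries, with 3 points per group and the mean and SD of 3 beside them. Smoc2 was lowest in KO senescent libraries, Spon2 was high in all KO libraries, and Thbs2 rose with senescence in both genotypes.

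Smoc1 and Smoc2 encode secreted modular calcium-binding proteins with SPARC-type domains, and SMOC1 is known as an antagonist of bone morphogenetic protein (BMP) signalling. Smoc2 rose with senescence in WT cells and fell in KO cells, and Smoc1 fell in both, further in KO cells. Smoc2 (ENSMUSG00000023886, GRCm38 chromosome 17, 14279506 to 14404790, plus strand) stood at 183, 214 and 180.1 CPM in replicates 1 to 3 of WT control cells, and at 251, 277 and 286 CPM in WT senescent cells. In KO cells it was 169, 209.8 and 197 CPM in control and 86.0, 97.4 and 69.4 CPM in senescent libraries. WT senescent libraries were thus all above, and KO senescent libraries all below, every control library of either genotype, while the control libraries of the 2 genotypes overlapped.

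The Smoc2 log2 fold change with senescence was 0.49 (SE 0.12, adjusted p 0.00534) in WT and −1.19 (SE 0.13, adjusted p 1.05e-05) in KO cells. Its interaction was −1.68 (SE 0.18, adjusted p 0.000132), the largest in size of the 10 genes. In senescent cells Smoc2 was lower in KO by 1.69 on the log2 scale (log2 fold change −1.69, SE 0.13, adjusted p 5.08e-06), and in control cells the difference was −0.01 (95% interval −0.28 to 0.27, adjusted p 0.986). The chondrocyte markers moved with Smoc2 in some comparisons: all 9 tested were lower in the interaction (median −1.57) and in KO against WT senescent cells (median −1.62). In WT cells, where Smoc2 rose with senescence, all 9 fell. Their part in the Smoc2 differences was not tested.

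Smoc1 (ENSMUSG00000021136, chromosome 12, 81026808 to 81186414, plus strand) was 46.2, 56.2 and 49.4 CPM in WT control and 31.0, 34.5 and 33.1 CPM in WT senescent libraries. It was 57.8, 64.6 and 60.8 CPM in KO control and 25.8, 26.5 and 21.2 CPM in KO senescent libraries. The 4 groups did not overlap, with KO the higher genotype in control and the lower in senescent cells. The fall was 0.62 on the log2 scale in WT (log2 fold change −0.62, SE 0.08, adjusted p 2.09e-06) and 1.32 in KO cells (log2 fold change −1.32, SE 0.08, adjusted p 3.36e-11), and the interaction was −0.70 (SE 0.12, adjusted p 0.00037). In senescent cells KO was lower by a log2 fold change of −0.43 (SE 0.09, adjusted p 0.000999). The higher level in KO control cells (0.27, SE 0.08, adjusted p 0.0312) did not hold when replicate 1 or 3 of WT control or replicate 2 or 3 of KO control was left out (adjusted p up to 0.176). Nor did it pass in an alternative setting with all libraries kept (adjusted p 0.0535). The chondrocyte markers moved with Smoc1 in 4 comparisons: all 9 tested fell with senescence in WT and in KO cells. All 9 were also lower in the interaction and in KO against WT senescent cells. Between control cells, where Smoc1 was higher in KO, 2 of them passed as lower and 0 as higher. Their part in the Smoc1 differences was not tested.

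The balance of the pair was compared per kilobase of exon. Smoc1 stood at 0.523 ± 0.022 of the Smoc2 level in WT control cells, 0.241 ± 0.009 in WT senescent, 0.636 ± 0.039 in KO control and 0.582 ± 0.036 in KO senescent cells (SD, n = 3). WT senescent libraries, at 0.231 to 0.248, were separate from all others.

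Sparc encodes osteonectin, a collagen-binding protein with roles in fibril assembly, and Sparcl1 encodes hevin, its close relative. Sparc fell with senescence in both genotypes by similar amounts, and Sparcl1 was sparse and variable. Sparc (ENSMUSG00000018593, chromosome 11, 55394500 to 55423183, minus strand) was 5134, 5676 and 5326 CPM in WT control and 2968, 2948 and 2918 CPM in WT senescent libraries. In KO cells the values were 5584, 5981 and 5873 CPM in control and 3364, 3622 and 3520.1 CPM in senescent libraries. Senescent and control libraries were apart in both genotypes, and KO senescent libraries were all above WT senescent ones.

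With senescence the Sparc log2 fold change was −0.87 (SE 0.05, adjusted p 2.93e-12) in WT and −0.73 (SE 0.05, adjusted p 4.07e-11) in KO cells. The interaction of 0.14 did not pass (95% interval −0.00 to 0.28, adjusted p 0.169), but passed in an alternative setting with all libraries kept (adjusted p 0.048). KO was higher in senescent cells by 0.25 on the log2 scale (SE 0.05, adjusted p 0.000644), and the difference in control cells was 0.11 (95% interval 0.01 to 0.21 before adjustment, adjusted p 0.143). The summed fibroblast markers, which include fibrillar collagens, were lower in all senescent libraries (6861 to 9144 CPM) than in all control libraries (16427 to 22829 CPM). That sum was carried by Col1a1, Col1a2 and Col3a1, which fell in both genotypes, whereas the other 5 markers rose in WT cells and Dcn, Pdgfrb and Thy1 rose in KO cells too. The list's median log2 fold change was 0.58 in WT and 0.04 in KO cells.

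Sparcl1 (ENSMUSG00000029309, chromosome 5, 104079111 to 104113733, minus strand) was 7.64, 8.59 and 2.98 CPM in WT control and 3.54, 3.57 and 2.55 CPM in WT senescent libraries, or 66 to 211 counts. In KO cells it was 3.32, 4.41 and 4.85 CPM in control and 2.51, 2.59 and 3.71 CPM in senescent libraries. WT control replicate 3 lay far below the other 2 of its group and inside the range of the senescent libraries. The fall in WT cells (log2 fold change −0.99, SE 0.31, adjusted p 0.0152) was −1.33 without WT control replicate 3 and did not pass when replicate 1 or 2 of WT control or replicate 3 of WT senescent cells was left out (adjusted p up to 0.0687). The WT fall also did not pass in an alternative setting with all libraries kept (adjusted p 0.0579). The KO change (−0.51, 95% interval −1.21 to 0.19, adjusted p 0.199), which passed without the filter on low counts (−0.52, adjusted p 0.0279), and the interaction (0.48, 95% interval −0.49 to 1.46, adjusted p 0.499) did not pass. The control-cell difference between genotypes was −0.62 (adjusted p 0.23) with all libraries and −0.95 (adjusted p 0.00316) without WT control replicate 3, and it also passed with all libraries kept when no filter on low counts was applied (−0.61, adjusted p 0.0196). That of senescent cells was −0.13 (95% interval −0.84 to 0.57, adjusted p 0.817).

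**Figure D3:**
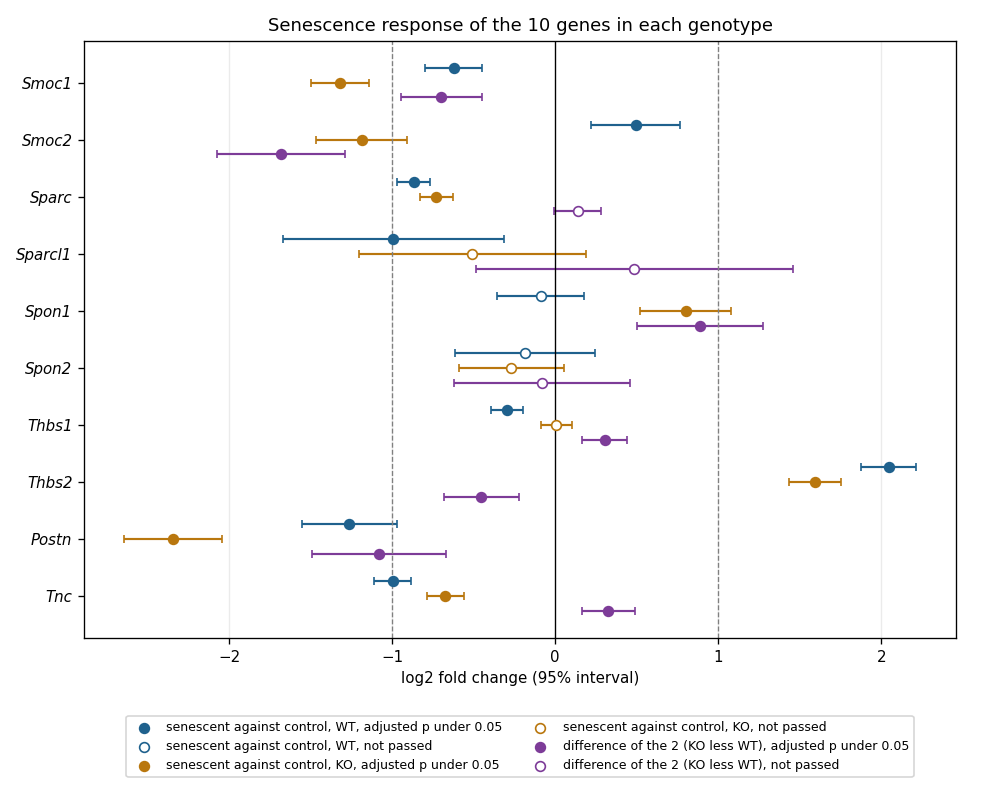
Log2 fold change of senescent against control cells in WT and in KO MAFs, and the difference of the 2, for each gene, with 95% intervals before adjustment. Filled points passed an adjusted p of 0.05, open points did not, and dashed lines mark a log2 fold change of 1 in either direction. Smoc2 is the gene whose response passed in opposite directions, and Thbs2 and Postn hold the largest rise and fall.

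Spon1 encodes F-spondin, a floor-plate and matrix protein that binds the amyloid precursor protein, and Spon2 encodes mindin, a matrix protein known for binding bacteria and integrins. The pair went opposite ways between genotypes in control cells, with Spon1 lower and Spon2 higher in KO. Spon2 (ENSMUSG00000037379, chromosome 5, 33198184 to 33218455, minus strand) was 2.17, 1.83 and 1.72 CPM in WT control and 1.67, 1.28 and 2.12 CPM in WT senescent libraries. It was 10.8, 9.60 and 11.0 CPM in KO control and 9.96, 7.41 and 8.68 CPM in KO senescent libraries. Every KO library was above every WT library, at 209 to 285 counts against 38 to 55.

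Spon2 was higher in KO by 2.45 (SE 0.18, adjusted p 5.44e-09) in control and 2.37 (SE 0.18, adjusted p 8.5e-09) in senescent cells on the log2 scale, the largest differences between genotypes among the 10 genes. Its senescence changes did not pass, at −0.19 in WT (95% interval −0.62 to 0.24, adjusted p 0.466) and −0.27 in KO cells (95% interval −0.59 to 0.05, adjusted p 0.145), nor did the interaction of −0.08 (95% interval −0.62 to 0.46, adjusted p 0.866). Among the 10 genes, Spon2 was thus the one whose libraries split by genotype and overlapped between control and senescent cells of each genotype.

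Spon1 (ENSMUSG00000038156, chromosome 7, 113765998 to 114043370, plus strand) was 10.1, 9.32 and 8.17 CPM in WT control and 9.15, 8.86 and 7.95 CPM in WT senescent libraries. In KO cells it was 5.88, 4.78 and 4.85 CPM in control and 9.76, 9.36 and 7.90 CPM in senescent libraries. The KO control libraries were below all others, and the other 3 groups overlapped. Spon1 was lower in KO control cells (log2 fold change −0.83, SE 0.13, adjusted p 0.000203) and rose with senescence in KO cells (0.80, SE 0.13, adjusted p 2.86e-05), and the interaction was 0.89 (SE 0.19, adjusted p 0.00192). The WT change was −0.09 (95% interval −0.36 to 0.18, adjusted p 0.584) and the difference between senescent groups 0.06 (95% interval −0.21 to 0.32, adjusted p 0.798).

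Spon1 lies on the chromosome of the targeted gene, with 451871 bases between the end of Arntl and its start. Arntl was likewise lowest in KO control libraries (15.2, 11.8 and 12.5 CPM), and KO senescent libraries (27.0, 25.3 and 27.5 CPM) were nearer to WT. Of 13 tested genes within 1 Mb of Arntl, 3 differed between control cells of the 2 genotypes (23.1%, against 13% of all genes), with Parva, Spon1 and Rras2 being those 3. Spon1 itself is thus in this count, and 1 of the 3 was higher and 2 were lower in KO. In senescent cells 4 of the 13 differed, all higher in KO and without Spon1 (30.8%, against 23.7% of all genes). The neighbour genes were named after their values were seen. Whether the position of Spon1 bears on its level was not tested.

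Per kilobase of exon, Spon2 was at 0.730 ± 0.034 of the Spon1 level in WT control cells and at 0.697 ± 0.221 in WT senescent cells (SD, n = 3). In KO cells it was at 7.17 ± 0.76 times the Spon1 level in control and 3.42 ± 0.56 times in senescent cells, so the order of the pair was reversed between genotypes in every library.

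Thbs1 and Thbs2 encode thrombospondins that bind the receptors CD36 and CD47 and are known as inhibitors of blood vessel growth, and THBS1 can also activate latent TGF-beta. Thbs2 rose in both genotypes and was higher in KO at either state, and Thbs1, a far more abundant transcript, moved little. Thbs2 (ENSMUSG00000023885, chromosome 17, 14665500 to 14694235, minus strand) was 30.2, 35.5 and 29.4 CPM in WT control and 132, 139 and 121 CPM in WT senescent libraries. It was 92.5, 88.1 and 90.1 CPM in KO control and 266, 303 and 247 CPM in KO senescent libraries. The 4 groups were separate, in the order WT control, KO control, WT senescent and KO senescent.

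Senescence raised Thbs2 by a log2 fold change of 2.04 (SE 0.08, adjusted p 1.92e-13) in WT, or 4.13-fold, and of 1.59 (SE 0.08, adjusted p 2.38e-12) in KO cells, or 3.02-fold. The interaction was −0.45 (SE 0.11, adjusted p 0.00666). KO was higher by 1.51 (SE 0.08, adjusted p 4.23e-10) in control and by 1.06 (SE 0.07, adjusted p 1.48e-08) in senescent cells on the log2 scale, the latter being 0.97 without KO senescent replicate 2, which ends its status as a DEG. Thbs2 was the 1 gene of the 10 that was a DEG and higher in both senescence comparisons, against 11.6% of all genes that were so in WT and 11.2% in KO cells.

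Thbs1 (ENSMUSG00000040152, chromosome 2, 118111876 to 118127133, plus strand) was 7448, 7609 and 8119.9 CPM in WT control and 6447, 6081 and 6356 CPM in WT senescent libraries. In KO cells it was 7175, 6950.2 and 6936 CPM in control and 7060.3, 7272 and 6839 CPM in senescent libraries. WT senescent libraries were lowest and WT control libraries highest, with both KO groups between them and overlapping each other. It fell in WT cells (log2 fold change −0.30, SE 0.05, adjusted p 1.39e-05), the KO change was 0.01 (95% interval −0.09 to 0.10, adjusted p 0.904) and the interaction was 0.30 (SE 0.07, adjusted p 0.00251). The KO change became a rise when libraries were scaled by total counts alone (0.16, adjusted p 0.00202), which moved the median of all genes to 0.15, or by upper quartiles (0.09, adjusted p 0.0411). The difference between senescent groups, 0.16 (SE 0.05, adjusted p 0.0125), lost significance without WT senescent replicate 2 (adjusted p 0.094) or KO senescent replicate 2 (adjusted p 0.0638), and that of control cells, −0.14 (95% interval −0.23 to −0.04 before adjustment, adjusted p 0.0545), did not pass, although the libraries did not overlap. It passed with DESeq2 size factors (adjusted p 0.0452), upper quartile factors (0.0113) or total counts (0.0133) in place of TMM and with DESeq2 (adjusted p 0.0123). An annotated gene on the other strand, Gm29233, covers 3.42% of the exon bases of Thbs1.

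Per kilobase of exon, Thbs2 amounted to 0.357% ± 0.045 of Thbs1 in WT control, 1.80% ± 0.17 in WT senescent, 1.11% ± 0.01 in KO control and 3.34% ± 0.24 in KO senescent cells (SD, n = 3). Thbs2 and Smoc2 are neighbours on chromosome 17, with 260709 bases between them, and had opposite responses in KO cells, where Thbs2 rose and Smoc2 fell.

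Postn encodes periostin, which promotes collagen cross-linking in ligament, dermis and scar, and Tnc encodes tenascin-C, a large hexameric glycoprotein of healing wounds. Both fell with senescence in each genotype and were higher in KO than in WT cells in each state. Postn (ENSMUSG00000027750, chromosome 3, 54361109 to 54391037, plus strand) was 586, 693 and 580.4 CPM in WT control and 266, 267 and 243 CPM in WT senescent libraries. It was 1788, 2405 and 2228 CPM in KO control and 424, 479 and 361 CPM in KO senescent libraries. The 4 groups did not overlap, and ran from WT senescent, the lowest, through KO senescent and WT control to KO control.

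Postn fell by 1.26 on the log2 scale with senescence in WT (log2 fold change −1.26, SE 0.13, adjusted p 1.35e-05) and by 2.34 in KO cells (log2 fold change −2.34, SE 0.14, adjusted p 1.03e-07). The interaction was −1.08 (SE 0.18, adjusted p 0.00262), and it was −0.99 without KO control replicate 2 and −0.98 without KO senescent replicate 3, which leaves Smoc2 as the only interaction DEG of the 10. KO was higher by 1.79 (SE 0.13, adjusted p 1.18e-05) in control and by 0.70 (SE 0.13, adjusted p 0.00314) in senescent cells. The chondrocyte marker sum fell with senescence in both genotypes and was lower in KO than in WT control libraries. Of its 9 tested genes 2 passed as lower and 0 as higher between control cells. Col2a1 averaged 4954 CPM in WT and 3031 CPM in KO control cells, and Acan 2045 and 2077 CPM. The part of these markers in the Postn differences was not tested.

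Tnc (ENSMUSG00000028364, chromosome 4, 63959785 to 64047015, minus strand) was 1963, 2128 and 2048 CPM in WT control and 1077, 965 and 1032 CPM in WT senescent libraries. In KO cells it was 2408, 2436 and 2408 CPM in control and 1622, 1519.8 and 1405 CPM in senescent libraries. The 4 groups were separate, with KO above WT in each state. Tnc fell by 0.998 on the log2 scale in WT cells (SE 0.06, adjusted p 2.79e-12), just inside the limit for a DEG, and by 0.67 in KO cells (log2 fold change −0.67, SE 0.06, adjusted p 1.21e-09), and the interaction was 0.32 (SE 0.08, adjusted p 0.0054). KO was higher by 0.24 (SE 0.06, adjusted p 0.00552) in control and 0.56 (SE 0.06, adjusted p 3.26e-07) in senescent cells. Exons of 8030451A03Rik on the other strand cover 2.27% of those of Tnc.

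**Figure D4:**
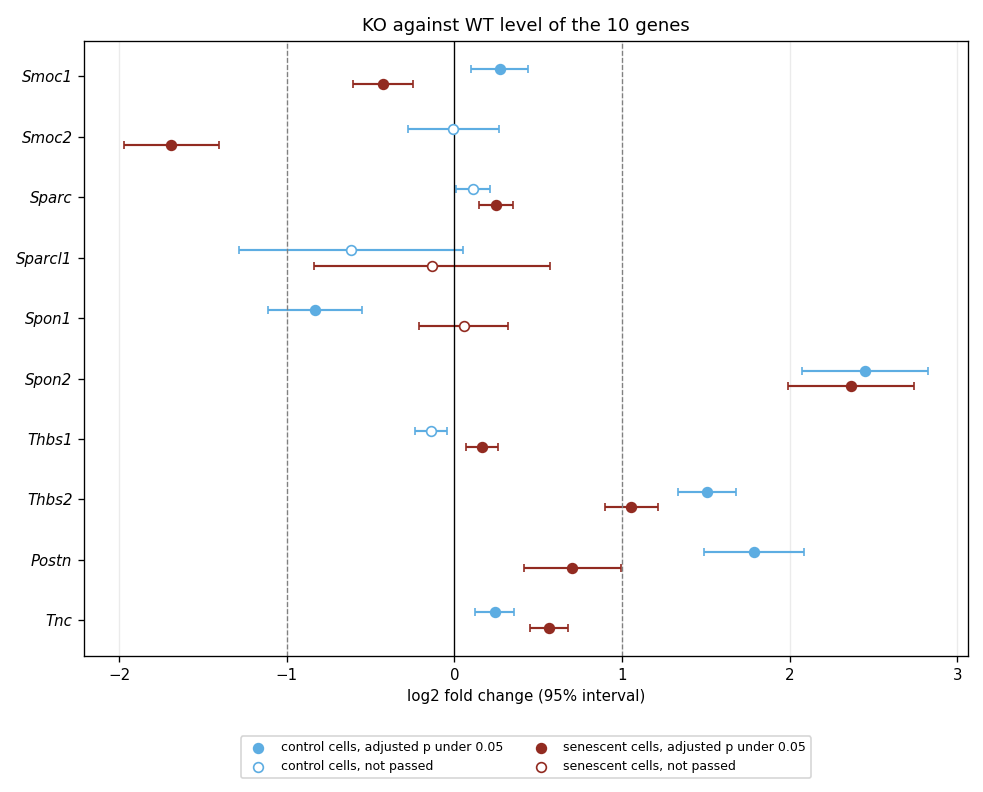
Log2 fold change of KO against WT for each gene in control and in senescent cells, with 95% intervals before adjustment. Filled points passed an adjusted p of 0.05, open points did not, and dashed lines mark a log2 fold change of 1 in either direction. Spon2 lies at 2.45 and 2.37, Smoc2 at −0.01 in control and −1.69 in senescent cells.

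A RefSeq table of GRCm38.p6 held 6 promoters of 4 of the 10 genes (Postn, Tnc, Sparc and Thbs2). The 250 bases before the transcription start are shown for Thbs2 and Postn, which had the largest genotype differences of the 4 in control cells and answered senescence in opposite directions. The letters TATAAA, the core of the TATA box that places the start of transcription, are in capitals, on either strand (TTTATA on the other one, and the 2 words overlap where a run holds both).
Thbs2: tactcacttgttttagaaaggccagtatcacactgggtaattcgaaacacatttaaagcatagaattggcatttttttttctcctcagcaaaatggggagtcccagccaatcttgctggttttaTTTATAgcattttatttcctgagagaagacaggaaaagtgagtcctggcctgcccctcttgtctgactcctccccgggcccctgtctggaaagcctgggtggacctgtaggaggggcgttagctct
Postn: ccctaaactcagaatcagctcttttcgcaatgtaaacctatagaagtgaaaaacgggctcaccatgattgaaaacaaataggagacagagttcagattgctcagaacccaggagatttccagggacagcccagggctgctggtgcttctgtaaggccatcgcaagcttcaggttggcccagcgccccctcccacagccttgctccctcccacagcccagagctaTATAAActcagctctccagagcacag

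The Thbs2 sequence is chr17:14694263-14694512 on the minus strand and that of Postn is chr3:54360857-54361106 on the plus strand, the nearer to the gene of 2 Postn promoters in the table. The capitals begin 26 bases before the start in Postn and 126 bases before it in Thbs2. Both Tnc promoters held TATAAA as well, the Sparc promoter and the other Postn promoter did not, and 12.4% of all 32851 promoters in the table held it in the same window. The E-box of the BMAL1 dimer (CACGTG, its own reverse complement) and the AP-1 motif (TGACTCA, or TGAGTCA on the other strand) were in none of the 6 promoters, and in 6.02% and 4.46% of all promoters. A missing match says only that these letters were not in this window.

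The order of the 10 genes was compared per kilobase of exon in each group. In WT control cells it ran from Sparc, at 1420 ± 72 CPM per kb (SD, n = 3), through Thbs1 (1272 ± 58), Tnc, Postn, Smoc2, Smoc1, Thbs2, Sparcl1 and Spon1 to Spon2 (0.647 ± 0.080), with no overlap of libraries between neighbours. Thbs1 and Sparc changed places in both senescent groups, with Thbs1 at 1036 ± 31 and 1162 ± 36 CPM per kb and Sparc at 777 ± 7 and 924 ± 34 CPM per kb in WT and KO cells. Smoc2 stood above Postn in WT senescent cells (39.0 ± 2.6 against 29.7 ± 1.6 CPM per kb) and below both Postn and Thbs2 in KO senescent cells (12.1 ± 2.0 against 48.4 ± 6.8 and 38.9 ± 4.0 CPM per kb). Neighbours that overlapped were Postn and Thbs2 in KO senescent cells, and Sparcl1 and Spon1 in both senescent groups. Spon2 was last in both WT groups and eighth in both KO groups.

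**Figure D5:**
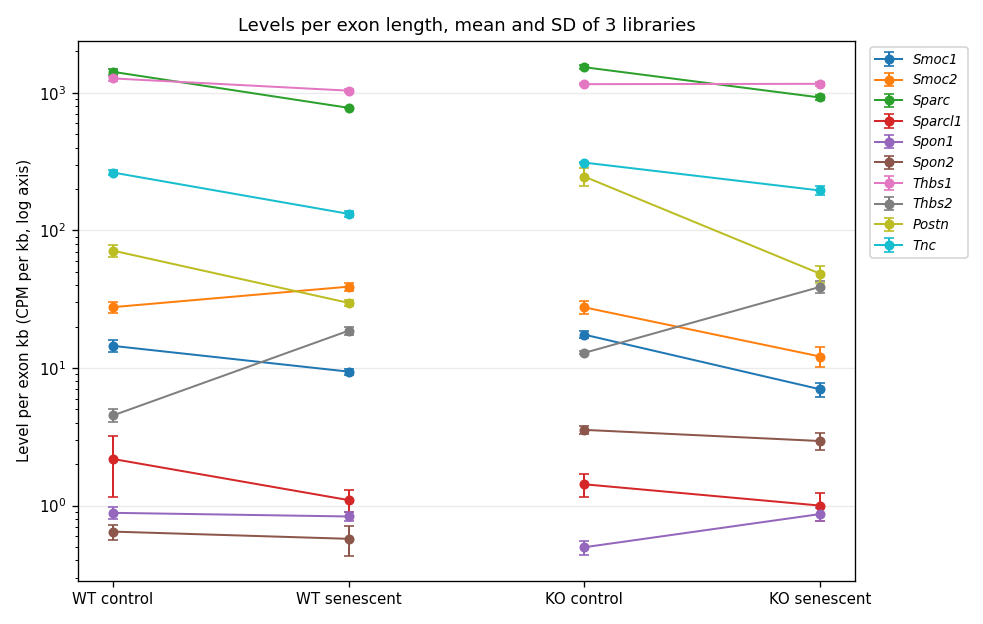
Level per kilobase of exon (CPM per kb, log axis) of the 10 genes as mean and SD of 3 libraries in each group, with lines joining control and senescent cells of a genotype. Sparc, Thbs1 and Tnc were the 3 highest in every group, and Spon2 lay lowest in WT and above Sparcl1 and Spon1 in KO cells.

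Relatives of the 10 genes in the matricellular class, 23 in all of which 21 were tested, showed changes in both directions. With senescence 11 rose and 5 fell in WT, and 10 rose and 4 fell in KO cells, with medians of 0.40 and 0.48. Of all genes, 29.2% rose and 27% fell in WT, and 28.5% rose and 28.6% fell in KO cells. Ccn3, a growth-restraining member of the CCN family, rose most in WT cells (log2 fold change 3.49, SE 0.24, adjusted p 1.11e-09) and less in KO cells (2.07, SE 0.19, adjusted p 5.07e-08), from 1.06 CPM in WT control and 4.39 CPM in KO control cells. Ccn2, the connective tissue growth factor gene, rose by 1.05 in WT and 1.38 in KO cells, and Ccn5 by 1.32 and 0.48. Tgfbi, the nearest relative of Postn, fell by 1.53 on the log2 scale in WT and by 2.52 in KO cells. Tnn, the tenascin-W gene, fell by 1.04 and 1.93.

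In the same list the senescence response differed between genotypes for 15 genes, 6 higher and 9 lower. The DEGs of the interaction were 5: Rspo2 (−2.01), Ccn3 (−1.42), Rspo1 (−1.38), Thbs3 (−1.05) and Spock1 (1.97). The R-spondins Rspo1 and Rspo2 and Spock1 were named after their values were seen and were sparse. Their highest group means were 2.08 CPM for Rspo1, 3.55 CPM for Rspo2 and 0.94 CPM for Spock1, which had 6 to 29 counts per library. Of all genes, 20.9% passed in the interaction and 3.66% were DEGs of it. Thbs3 rose in WT cells (1.03, adjusted p 1.7e-08), and its KO change did not pass (−0.02, adjusted p 0.858). Between genotypes 10 relatives were higher and 3 lower in KO control cells, among them Tnn (1.60, SE 0.08, adjusted p 1.21e-10) and Ccn3 (2.03, SE 0.26, adjusted p 3.89e-05). In senescent cells 6 were higher and 3 lower, and Comp, the cartilage thrombospondin, was lower in KO (−1.33, SE 0.17, adjusted p 0.000365). Of all genes, 8.07% were higher and 4.96% lower in KO control cells, and 11.9% were higher and 11.8% lower in KO senescent cells. Comp is itself a gene of cartilage, and the chondrocyte marker sum was lower in KO senescent cells too. Its part in the Comp difference was not tested.

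Receptors and binding partners of these proteins, 20 tested of 21, changed in both directions as well, with 6 higher and 8 lower in WT and 8 higher and 9 lower in KO senescent cells. The shares of all genes were 29.2% higher and 27% lower in WT, and 28.5% higher and 28.6% lower in KO cells. The integrin subunit gene Itgb3, whose product with alpha-v binds periostin and thrombospondin, fell by 1.54 on the log2 scale in WT (SE 0.14, adjusted p 7.26e-07) and by 0.57 in KO cells, with an interaction of 0.98 (SE 0.20, adjusted p 0.00332). It was higher in KO senescent cells by 1.40 (SE 0.14, adjusted p 1.39e-05). Itgb5, the other common partner of integrin alpha-v, rose in both genotypes (1.25 and 0.92), and Calr, whose product is part of a cell-surface receptor for thrombospondin, fell in both (−1.17 and −1.20). Of the thrombospondin receptors, Cd47 fell in KO cells (−0.25) and Cd36 rose there (1.37), both named after their values were seen. Cd36 was sparse, at a mean of 0.40 CPM in KO control and 1.06 CPM in KO senescent cells, and the libraries of these groups overlapped. Cd47 averaged 125 and 105 CPM in the same groups.

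The BMP pathway, on which SMOC1 acts, had higher levels of most ligands in senescent cells. Of 11 ligands and receptors 8 rose and 1 fell in WT cells, where 29.2% of all genes rose and 27% fell, and 9 rose and 2 fell in KO cells, where 28.5% rose and 28.6% fell, with medians of 0.93 and 1.95. Bmp2 rose by 3.49 in WT and 4.05 in KO cells and Bmp4 by 1.77 and 3.03, named after their values were seen, and both were at most 7.05 CPM in any group mean. The type I receptor Bmpr1b fell in WT cells (log2 fold change −1.09, SE 0.12, adjusted p 4.11e-07) and by 0.46 in KO cells. Among antagonists 5 of 8 rose in WT, and 5 rose and 2 fell in KO cells, against the same shares of all genes as for the ligands and receptors. Grem1, the gene of the antagonist gremlin, rose by 2.65 in WT (SE 0.08, adjusted p 8.12e-15) and 2.48 in KO cells (SE 0.08, adjusted p 1.18e-14) and was higher in KO in control (1.31) and senescent cells (1.13). Nog, the noggin gene, rose by 1.75 and 1.19.

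Of 8 genes that BMP signalling is known to induce, 5 rose and 1 fell in WT and 3 rose and 3 fell in KO senescent cells. The shares of all genes that rose and fell were 29.2% and 27% in WT, and 28.5% and 28.6% in KO cells. Between senescent cells 1 was higher and 5 were lower in KO, with log2 fold changes of −0.43 to −0.19 for Id3, Atoh8, Id1, Id2 and Smad6 and 0.27 for Smad7, named after their values were seen. Of all genes, 11.9% were higher and 11.8% lower in KO senescent cells. Smoc1 and Smoc2 were lower in the same comparison. None of these counts tests whether the members and the pathway are linked.

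For each of the 10 genes the tested genes with the most similar pattern were sought among 10946 genes of at least 5 CPM, by Pearson r of log2 CPM over the 12 libraries. The r values are descriptions, since the libraries share 4 groups and the highest of many were taken. Postn was most like the tenascin-W gene Tnn (0.996), then Il1rl2 (0.986) and Col4a2 (0.982). Tnc was most like Col5a1 (0.991), Calu and Nid1, and Sparc most like Pck2 (0.995), Pycr1 and Col1a1, so collagen genes stood beside both. Thbs2 was nearest to the chemokine gene Ccl7 (0.993), Cdh11 and Syt17, and Thbs1 to Fam98a (0.958), Prpf3 and Psmb7.

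Smoc1 was most like Slc27a3 (0.992), Serinc5 and Erbin, and Smoc2 most like Rcbtb2 (0.989), Lmo7 and Cnksr3, so the 2 had no pattern mate in common. Spon2 was nearest to Rps4l (0.979), Rps13-ps1 and the clock repressor gene Cry1 (0.971), and counts of Rps13-ps1, a pseudogene, may be shared with its parent gene. Spon1 was nearest to Cmss1 (0.894), Arntl (0.892) and Rp9, and Sparcl1 to Pde6g (0.907), Osbp2 and Camta1, the lowest values of the 10.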

How the data were processed

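RNA-seq of MAFs gave gene counts in 12 libraries, 3 per group, with groups taken from the deposited sample labels. The authors deposited raw counts: poly(A) RNA was made into NEBNext Ultra II libraries, reads were trimmed with Trimmomatic 0.36 and mapped to GRCm38 with STAR 2.5.2b, and featureCounts counted uniquely mapped reads in exons. The use of strand and the annotation release are not given in the sources used here, so overlapping genes are uncertain, and dropping multiply mapped reads lowers genes with near-identical copies.

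Symbols, coordinates and exon lengths came from GENCODE M21 on GRCm38 (49056 of 49315 identifiers matched, all listed genes included). The testing used edgeR 4.0.16 under R 4.3.3, with filterByExpr, TMM factors and a robust quasi-likelihood fit over all 12 libraries with 1 mean per group, and F-tests of 5 comparisons with Benjamini-Hochberg adjustment over 17416 genes. The SE was the absolute log2 fold change divided by the square root of F. DEGs had an adjusted p under 0.05 and a log2 fold change over 1 in size, as in the study's methods. The steps were tested on simulated counts with the same spread set for every gene, which does not measure error rates in these libraries. Floors of 3 counts and SDs cover counting error and these libraries only, since the reads carried no molecular identifiers.

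Named genes were the 10 members, Arntl, Cdkn1a and Mki67, up to 2 DEGs per pathway list, comparison and direction with the largest change at a mean of at least 5 CPM, and 3 pattern mates per member. A gene that the rule gave is left out of the text. The members and lists were chosen with earlier results of these data known. Alternatives were other scalings, no count filter, DESeq2 1.42.0, only the groups compared, a replicate block, no fold threshold and leaving out each library. Whether replicate numbers pair the samples is not given in the sources used here. The deviations of same-numbered control and senescent libraries correlated at 0.01 to 0.11 in WT and −0.13 to 0.05 in KO cells. Those of differently numbered libraries correlated at −0.08 to 0.04 and −0.10 to 0.17. With 3 libraries per group these values cannot settle whether samples were paired.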

Additional observations from a re-analysis of the deposited data

Results flagged for a closer look

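The senescence response differed between WT and KO cells, by the interaction term of the edgeR fit, for 7 of the 10 genes. The difference (KO log2 fold change less WT) was −0.70 for Smoc1, −1.68 for Smoc2, 0.89 for Spon1, 0.30 for Thbs1, −0.45 for Thbs2, −1.08 for Postn and 0.32 for Tnc. The change was steeper in KO cells for Smoc1 and Postn, shallower for Thbs2 and Tnc, of opposite sign for Smoc2, and past the threshold in 1 genotype alone for Spon1 (KO) and Thbs1 (WT).

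It also differed for 12 named genes of the pathway lists. Among matricellular relatives the differences were −0.89 for Comp, −1.05 for Thbs3, −0.90 for Tnn, 0.73 for Spock2, 0.33 for Ccn2, −1.42 for Ccn3, −0.84 for Ccn5 and −0.99 for Tgfbi. Among receptors they were 0.98 for Itgb3, −0.32 for Itgb5 and 0.28 for Cspg4, and 0.63 for the BMP receptor gene Bmpr1b. Across all genes 20.9% passed the same test.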

How the results depend on the processing

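Of 370 single-gene values with all libraries kept, 355 kept direction and side of the threshold, 2 lost and 10 gained significance, and 3 changed sign. These were Spon1 with WT senescence (0.079, total counts only), Thbs1 with KO senescence (−0.0093) and Smoc2 in KO against WT control cells (0.00092), the last 2 without a count filter. None of the 3 passed the test with the reported settings, and the cause was not tested. The 2 losses were the fall of Sparcl1 with WT senescence (adjusted p 0.0579) and the Smoc1 difference in KO against WT control cells (adjusted p 0.0535). With no fold threshold the 5 comparisons gave 8, 7, 7, 6 and 8 of the 10 genes and 9795, 9947, 3639, 2269 and 4130 of all genes, in the order WT senescence, KO senescence, interaction, KO against WT control and KO against WT senescent cells. WT senescence gave 4 DEGs of the 10 with DESeq2 size factors, without a filter and with DESeq2, because Tnc and Sparcl1 lie at the threshold. KO against WT control gave 273 DEGs of all genes when only those groups were fitted and 442 with the reported settings.

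Leaving out 1 library at a time gave 2 to 4 DEGs of the 10 in WT senescence (4 without WT senescent replicate 1), 1 to 2 in the interaction (1 when replicate 2 of KO control or replicate 3 of KO senescent cells was left out) and 2 to 3 in KO against WT senescent cells (2 without KO senescent replicate 2), and 283 (without WT control replicate 1) to 753 (without WT control replicate 3) DEGs of all genes in KO against WT control. Ranges that crossed 0 were −0.073 to 0.080 for Smoc2 in KO against WT control, −0.018 to 0.027 for Thbs1 with KO senescence, −0.25 to 0.10 for Spon2 in the interaction and −0.0033 to 0.14 for Spon1 in KO against WT senescent cells. With a replicate block the 10 genes gave 2, 4, 2, 3 and 3 DEGs as without it, and all genes 3004, 3265, 632, 450 and 604. With the block nested in genotype the fall of Sparcl1 in KO cells passed (−0.52, adjusted p 0.0491), as it did without a filter on low counts (adjusted p 0.0279). Whether the numbers pair the samples is not known, and no other call of a member changed with either block.

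Scaling by total counts moved the median of all genes to 0.19 in WT and 0.15 in KO senescence, and the share of DEGs that were higher from 66.2% to 76.8% and from 59.7% to 69.4%. Sparcl1, Spon1 and Spon2, at 1.28 to 11.0 CPM, had the fewest counts of the 10 genes, and the part of depth in their spread was not tested.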
